A study of Mus musculus with 6 samples.

Results

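Cytosolic ribosomal protein mRNAs encode the protein parts of the ribosome that reads mRNAs of the nucleus. They were taken by gene symbol from a table of read counts, as the rows whose symbol has the form Rpl or Rps followed by a number, with Rplp0, Rplp1, Rplp2, Rpsa and Fau added and S6 kinases and pseudogene rows left out. The rule found 87 genes of 40773 in the table, 53 of the large subunit and 34 of the small subunit. It used no measured value. It left out Rack1 and Rpl36al, among others, which also encode ribosomal proteins.

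The libraries came from RAW264.7, a macrophage line of mouse origin whose genotype is given as plain, so both groups share a single line. Cells of both groups were kept for 24 h with 100 ng/mL lipopolysaccharide (LPS), a bacterial cell wall component that activates macrophages through Toll-like receptor 4. The group LPS had LPS alone, and the group 3A2 had LPS together with 50 µg/mL of 3A2, an antibody that neutralizes the membrane-bound protease MMP14. Each group had 3 libraries, described as biological replicates, and cells without LPS or with a control antibody were not analysed here. The comparison asks how blocking MMP14 changes the transcriptome of LPS-treated macrophages. With no control antibody among these libraries, blocking MMP14 and adding an antibody cannot be told apart.

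Library totals ran from 6060732 to 7432553 counts, and the counts of every pair of libraries differed by more than sampling noise (chi-square per degree of freedom from 3.46 to 23.5 over genes). All 10 macrophage markers examined had counts, and their summed level was 7199 to 7268 CPM (read count scaled to the size of the library) with LPS and 6265 to 6706 CPM with 3A2. The sums of the lymphocyte, epithelial, fibroblast or adipocyte, and neutrophil, mast or dendritic marker lists were each at most 7.76 CPM in every library, and Cd3e, Epcam, Col1a2 and Adipoq were at 0. The third 3A2 library stood apart from the other 5, as described below for the ribosomal protein mRNAs.

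Each cytosolic ribosome holds a single copy of nearly every ribosomal protein, and the stalk proteins Rplp1 and Rplp2 are present as heterodimers. Many of these mRNAs begin with a terminal oligopyrimidine (TOP) tract, a run of C and T next to the transcription start, through which mTORC1 and LARP1 control their translation as a group. Growth of macrophages and their production of secreted proteins after LPS both draw on ribosomes. Translation was not measured here.

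Pyrimidine runs near the start were looked for because the symbol rule did not use sequence. RefSeq promoter windows of build GRCm38.p6, from 250 bases before to 50 after the annotated start, were matched by symbol to 65 of the 87 members and comprised 77 windows. The lines below show 30 bases each, 5′ to 3′ on the strand of the gene, with the longest run of C and T within 50 bases of the start in capitals, from the window with the longest run where a gene has several. They are the most abundant member, Rpl4, then the 3 matched members with the lowest fold change in this study and the 3 with the highest.
Rpl4: gagcgtggCCTTCTCCTCTCCCCgtcatgg
Rpl10a: aagcgctctgCCTTCTTTCCggtttccgcg
Rpl24: acctcaaacccaCTCCCCgccaatgctgta
Rpl37: ggcgggggtgCTTTCTCTTCCggtctcttt
Rps27l: actcctctccaCTCCTCCCCgccgcctcta
Rpl34: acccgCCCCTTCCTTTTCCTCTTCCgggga
Rpl10: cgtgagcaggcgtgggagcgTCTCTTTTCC
These lie at chr9:64173405-64173434 (Rpl4, plus strand), chr17:28328572-28328601 (Rpl10a, plus), chr16:55966227-55966256 (Rpl24, plus), chr15:5116631-5116660 (Rpl37, plus), chr9:66946063-66946092 (Rps27l, plus), chr3:130730330-130730359 (Rpl34, minus) and chrX:74270836-74270865 (Rpl10, plus).

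The run was 15 bases long in Rpl4, 10 in Rpl10a, 6 in Rpl24, 11 in Rpl37, 9 in Rps27l, 20 in Rpl34 and 10 in Rpl10. In Rps27l 2 runs of 9 were equally long, and the one nearer to the start is in capitals. Of the runs shown, only that of Rpl34 spans the annotated start. Those of Rpl24 and Rps27l lie upstream of it, and those of Rpl4, Rpl10a and Rpl37 lie downstream. The run of Rpl10 is also downstream and ends at the edge of the window. The longest run had a median of 10 bases in member windows against 7 in all 32851 windows of the table. A run of at least 9 bases was present in 75.3% of member windows and in 25.3% of all windows, wherever in the 50 bases on either side it lay, so it is not shown to be a TOP tract. Over the whole 300 bases and on both strands, the letters CCGGAAG, which overlap the core of ETS factor motifs, were found in 35.1% of member windows and 8.86% of all windows. The letters AAGATGGC, which overlap the YY1 motif, were found in 11.7% and 2.75%, and TATAAA in 10.4% and 13.6%. CTTTCC, which can lie inside a pyrimidine run, was found in 48.1% and 26.6%. The median run was 11 bases in the 51 matched and tested members whose log2 fold change in this study was below 0 and 10 bases in the 10 above 0. These matches are descriptions of letters in annotated windows, and the start sites used in these cells were not measured.

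Of the 87 members, 84 had a count and 82 passed the filter on low counts and were tested, 49 of the large and 33 of the small subunit. Ribosomal protein mRNAs made up 4.48%, 4.51% and 4.50% of all counts in the LPS libraries and 4.35%, 4.40% and 3.91% in the 3A2 libraries. The mean was 4.50% ± 0.0136 (SD, n = 3) with LPS and 4.22% ± 0.267 (SD, n = 3) with 3A2, and all 3A2 libraries lay below all LPS libraries. The exact 95% binomial interval of the lowest 3A2 library was 3.90% to 3.93%, which covers counting error only. Without that library the 3A2 mean was 4.37%. The summed macrophage markers, given above, were also lower in all 3A2 libraries than in all LPS libraries, with 8 of 9 tested markers below 0, and their part in the difference was not tested. Lyz2 was the most abundant of these markers, at a mean of 4337 CPM with LPS and 3780 CPM with 3A2, while Cd68 was at 468 and 462 CPM. Both groups were cultures of a single cell line, and RNA from whole cultures does not give the level per cell.

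No member passed the test. By edgeR's quasi-likelihood test with Benjamini-Hochberg adjustment over 11498 genes, 0 of the 82 members were higher and 0 lower with 3A2 at the threshold of 0.05, and the lowest adjusted p among them was 0.719. The same rule called 0% of all genes in each direction. DESeq2 and limma-voom also called 0 members, and at an unadjusted p under 0.05 DESeq2 had 2 higher (1.88% of all genes) and 6 lower (1.42% of all genes). Limma-voom had 2 higher (3.18% of all genes) and 12 lower (3.17% of all genes). By edgeR at the same unadjusted p, 2 members were higher, against 3.43% of all genes, and 9 were lower, against 3.09% of all genes.

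The fold changes were small and lay mostly on the lower side. The log2 fold change of 3A2 over LPS was below 0 in 70 of 82 members, with a median of -0.07, while 49.6% of all tested genes were below 0, with a median of 0.0017. Among 658 other genes of like abundance (182 to 840 CPM), 50.3% were below 0. Fold changes ran from 0.825 for Rpl29 to 1.18 for Rpl30 and Rps27l, and the whole 95% interval lay within a 1.2-fold difference in either direction for 62 members and within 1.5-fold for all 82. The subunits were alike in this: 41 of 49 large subunit members were below 0 with a median of -0.06, and 29 of 33 small subunit members with a median of -0.07. The ratio of large to small subunit counts was between 1.41 and 1.43 in all 6 libraries. Without the third 3A2 library, 56 of 82 members were below 0, against 50.8% of all genes, and the median was -0.03. In that fit 2 members were higher at an unadjusted p under 0.05, against 2.79% of all genes, and 6 were lower, against 2.82% of all genes.

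**Figure D1:**
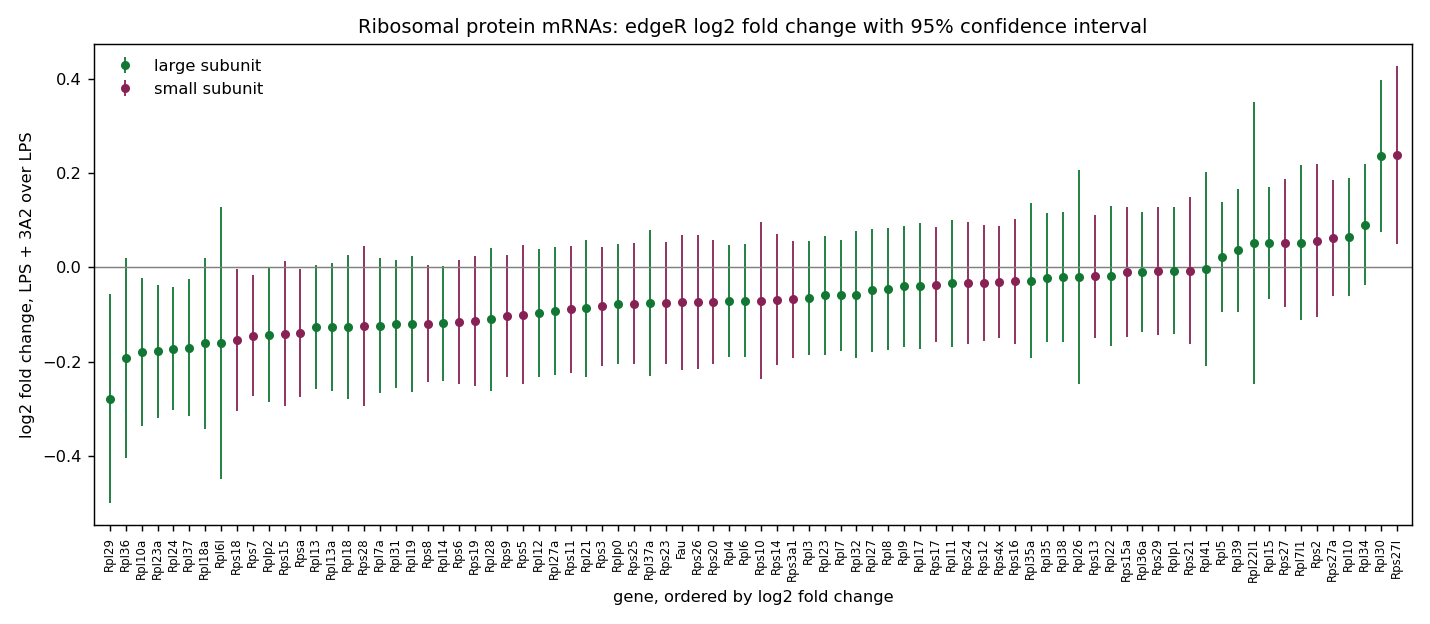
Log2 fold change of 3A2 over LPS (y axis) for each of the 82 tested ribosomal protein genes, ordered by value (x axis), with points as edgeR estimates, bars as 95% intervals and colours for the subunit. Of the 82 points, 70 lie below 0, and the interval lies wholly below 0 for 9 genes and wholly above 0 for 2.

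In 16 members the libraries of the groups did not overlap. All 3A2 libraries lay above all LPS libraries in 3 members, Rpl15, Rpl34 and Rpl30, against 5.84% of all genes. They lay below in 13 members, against 6.46% of all genes. With library totals alone in place of TMM scaling these counts were 2, against 4.51% of all genes, and 24, against 8.51% of all genes, and the median of all tested genes shifted to -0.02.

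Among the members with the lowest fold changes, Rpl29, a small lysine-rich protein of the large subunit, measured 191, 200 and 199 CPM with LPS and 185, 173 and 129 CPM with 3A2. All 3A2 values were lower than all LPS values, and the third was well below the others. The fold change was 0.825 (95% interval 0.708 to 0.961, adjusted p = 0.719 by edgeR). Rpl10a, the protein of the mobile stalk near the site where spent tRNA leaves, measured 594, 559 and 563 CPM with LPS and 540, 543 and 433 CPM with 3A2. Its groups did not overlap either, at 0.884-fold (0.792 to 0.985, adjusted p = 0.743 by edgeR). Rpl36, another large subunit protein, measured 249, 272 and 259 CPM against 256, 242 and 184 CPM. Its groups overlapped, and the fold change was 0.876 (0.756 to 1.01).

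Rpl23a, which sits at the rim of the tunnel through which the new protein leaves and where the signal recognition particle docks, measured 834, 788 and 776 CPM with LPS and 745, 748 and 627 CPM with 3A2. Rpl24, which forms a bridge to the small subunit, measured 368, 393 and 392 CPM with LPS and 355, 343 and 324 CPM with 3A2. In both genes every 3A2 library was below every LPS library. The fold changes were 0.884 (0.802 to 0.975) for Rpl23a and 0.887 (0.811 to 0.971) for Rpl24, each with an adjusted p of 0.719 by edgeR. Rpl37, a zinc-binding large subunit protein, measured 332, 317 and 296 CPM against 289, 297 and 254 CPM, so that its groups overlapped by a narrow margin.

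In the small subunit, Rps7, which can also bind the p53 ubiquitin ligase MDM2, measured 808, 810 and 769 CPM with LPS and 762, 729 and 668 CPM with 3A2. Rpsa, also known as the laminin receptor precursor, measured 1435, 1454 and 1465 CPM with LPS and 1372, 1410 and 1174 CPM with 3A2. The groups of both genes were separate, with fold changes of 0.905 (0.828 to 0.989) and 0.909 (0.827 to 0.998). Rps18, in the head of the small subunit, measured 363, 377 and 351 CPM against 351, 342 and 287 CPM, at 0.899-fold (0.811 to 0.998). The adjusted p by edgeR was 0.743 for Rps7 and 0.748 for Rpsa and Rps18.

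Rpl30 and Rps27l were the members with the highest fold changes. Rpl30, a large subunit protein that also binds selenocysteine insertion elements, measured 116, 103 and 101 CPM with LPS and 121, 123 and 133 CPM with 3A2. Its 3A2 libraries were all above its LPS libraries, at 1.18-fold (1.05 to 1.32, adjusted p = 0.719 by edgeR). Rps27l, a paralog of Rps27 known as a p53 target, measured 111, 110 and 103 CPM with LPS and 134, 106 and 142 CPM with 3A2. Its second 3A2 library lay within the LPS range, so the groups overlapped, at 1.18-fold (1.03 to 1.34, adjusted p = 0.719 by edgeR). Without that library Rps27l passed the test, at a log2 fold change of 0.35 (adjusted p = 0.0374 by edgeR). As the library left out held the lowest 3A2 value of Rps27l, this result gives no added support. The count of all genes called in that fit is given in the last section. At an unadjusted p under 0.05, 2 members were higher in that fit, against 8.02% of all genes. In the same fit 28 members were lower in place of 9, against 6.99% of all genes in place of 3.09%. Rpl34, a large subunit protein, measured 248, 247 and 249 CPM with LPS and 265, 256 and 271 CPM with 3A2, at 1.06-fold (0.975 to 1.16). Rpl15, also of the large subunit, measured 616, 602 and 623 CPM against 646, 638 and 624 CPM, so that its groups were only just separate.

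**Figure D2:**
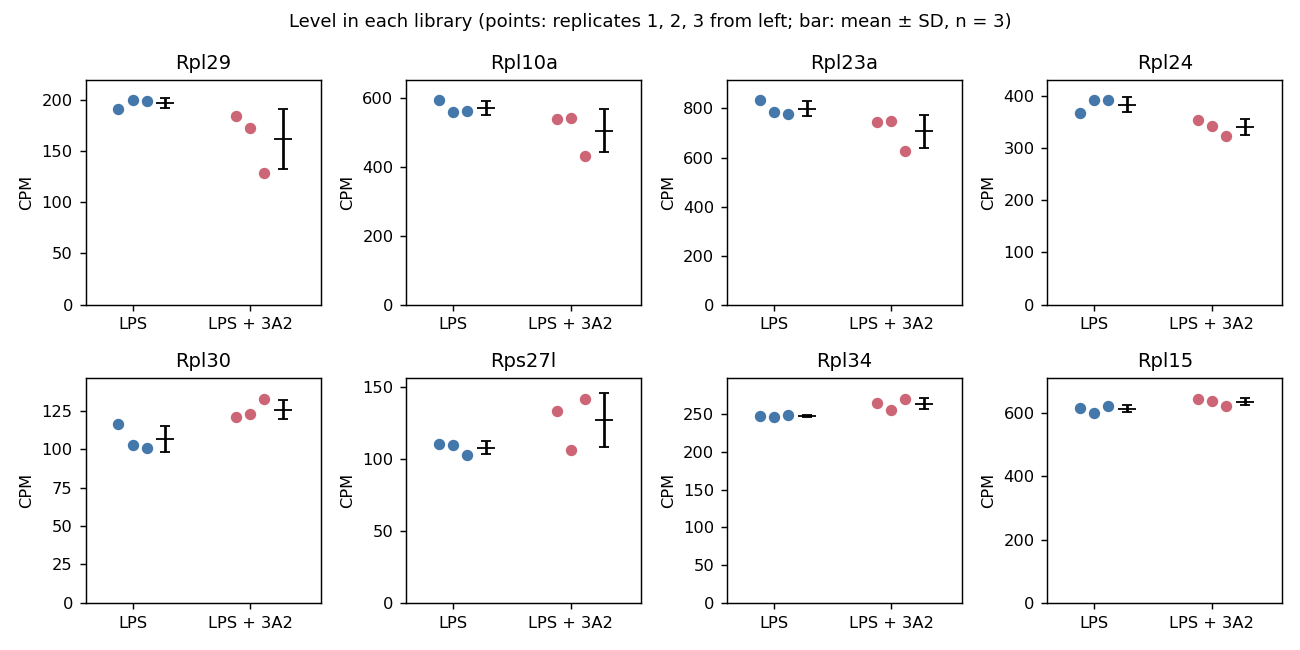
CPM (y axis, from 0) of 8 ribosomal protein mRNAs in the LPS and 3A2 groups (x axis), with points for replicates 1, 2 and 3 from the left and a bar for the mean ± SD (n = 3). Rpl29, Rpl10a, Rpl23a and Rpl24 have every 3A2 library below every LPS library, Rpl30, Rpl34 and Rpl15 have every one above, and Rps27l overlaps.

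The members were then read by role. The stalk, formed by Rplp0, Rplp1 and Rplp2, recruits the GTPases that drive translation, and all 3 genes were below 0. Rplp2 measured 472, 485 and 483 CPM with LPS and 438, 475 and 391 CPM with 3A2, at 0.906-fold (0.821 to 0.999). Rplp0, the base of the stalk, measured 1088 ± 25.5 CPM under LPS alone and 1031 ± 72 CPM under 3A2 (SD, n = 3). Rplp1 was nearest to equal, at 647 ± 15.7 and 644 ± 54.4 CPM (SD, n = 3). Its log2 fold change of -0.01 turned to 0.05 without the third 3A2 library.

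Rpl5 and Rpl11 form a particle with 5S rRNA that enters the large subunit and that, when free, binds MDM2. Rpl5 measured 929, 903 and 904 CPM with LPS and 911, 912 and 955 CPM with 3A2, at 1.02-fold (0.936 to 1.1). Rpl11 measured 544, 545 and 558 CPM against 561, 563 and 484 CPM, at 0.977-fold (0.889 to 1.07). The first and second 3A2 libraries were within the LPS range for Rpl5 and just above it for Rpl11, while the third was above it for Rpl5 and below it for Rpl11. Of the 9 proteins at the exit tunnel and its rim, 8 were below 0, with a median of -0.04. Rpl39, which lines the tunnel, was the exception at 1.03-fold (0.936 to 1.12).

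Among the most abundant members, Rpl4, a tunnel protein, measured 2321, 2314 and 2379 CPM with LPS and 2297, 2283 and 2099 CPM with 3A2. Its groups did not overlap, and the fold change was 0.952 (0.877 to 1.03). Rpl6 measured 974 ± 17.9 and 928 ± 39.3 CPM, Rps3a1 1027 ± 23.2 and 980 ± 55.5 CPM, and Rpl3, next to the peptidyl transferase centre, 813 ± 23.1 and 777 ± 28.2 CPM (SD, n = 3). Rps6, the small subunit protein that S6 kinases phosphorylate downstream of mTORC1, measured 888 ± 25.9 CPM under LPS alone and 819 ± 65.4 CPM under 3A2 (SD, n = 3), at 0.923-fold (0.842 to 1.01). Rps3, at the mRNA entry channel, measured 748 ± 13.2 and 706 ± 43.6 CPM (SD, n = 3). Rpl13a, which in interferon-treated monocytes leaves the ribosome to join the GAIT complex that represses inflammatory mRNAs, measured 719 ± 18.8 and 659 ± 57.8 CPM (SD, n = 3), at 0.916-fold (0.834 to 1.01).

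The 2 members that are made as fusions with a ubiquitin-like part lay on opposite sides of 0. Rps27a, fused to ubiquitin, measured 516 ± 16.5 CPM under LPS alone and 539 ± 16 CPM under 3A2 (SD, n = 3). Fau, fused to a ubiquitin-like protein, measured 513 ± 13.4 and 487 ± 48.2 CPM (SD, n = 3), and its log2 fold change of -0.07 was 0.005 without the third 3A2 library. Of 19 members whose human counterparts are mutated in Diamond-Blackfan anaemia, an inherited failure of red cell production, 16 were below 0, with a median of -0.03. Of 23 members that carry small nucleolar RNAs in their introns, 19 were below 0, with a median of -0.08, and Rpl30 was the highest of them.

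Several paralogs that the symbol rule includes had few or no counts. Rpl10l and Rpl39l, known from testis, and Rps4l had 0 counts in all 6 libraries, which allows up to 3 counts in a library. Rpl3l, known from striated muscle, had 8, 0 and 5 counts with LPS and 1, 1 and 2 with 3A2. Rpl32l had 6, 6 and 4 counts against 3, 5 and 1. Their partners Rpl10 (504 ± 14.6 and 527 ± 22.3 CPM) and Rps4x (784 ± 16.5 and 767 ± 18 CPM) were abundant in both groups (SD, n = 3).

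The share of a paralog in the sum with its partner was compared in 3 pairs by exact two-sided permutation tests, for which the smallest possible p with 3 against 3 libraries is 0.1. Rps27l made up 22.5%, 22.9% and 22.6% of Rps27l and Rps27 counts with LPS and 24.8%, 21.7% and 28.6% with 3A2 (exact p = 0.4, adjusted p = 0.6 over the 3 pairs). The LPS values were close together, and both the lowest and the highest value were in the 3A2 group. Rpl7l1 made up 10.1% ± 0.648 of its pair with Rpl7 under LPS and 10.9% ± 0.477 with 3A2 (SD, n = 3, exact p = 0.2, adjusted p = 0.6). Rpl22l1, whose splicing is held down by its partner Rpl22, made up 9.9% ± 1.02 and 10.3% ± 1.54 (SD, n = 3, exact p = 0.7, adjusted p = 0.7).

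The third 3A2 library stood apart in these mRNAs. For each gene the log2 CPM of a library was taken relative to the mean over the 6 libraries, and the median over the 82 members was -0.14 in that library and between 0.009 and 0.04 in the other 5. It was the lowest of the 6 libraries for 62 of 82 members, against 27.5% of all genes. It lay below the mean of the other 5 libraries for 70 of 82 members, against 50.1% of all genes, from -0.55 for Rpl29 to 0.34 for Rps27l. It was also the highest library for 8 members, among them Rps27l, Rpl30, Rpl34, Rpl5, Rpl10 and Rps27a. Each of the other 5 libraries was the highest for 8 to 24 members, and the share over all genes was not counted. The median coefficient of variation of a member was 3.07% in the LPS group and 7.18% in the 3A2 group, against 2.94% and 5.83% for the 658 other genes of like abundance.

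**Figure D3:**
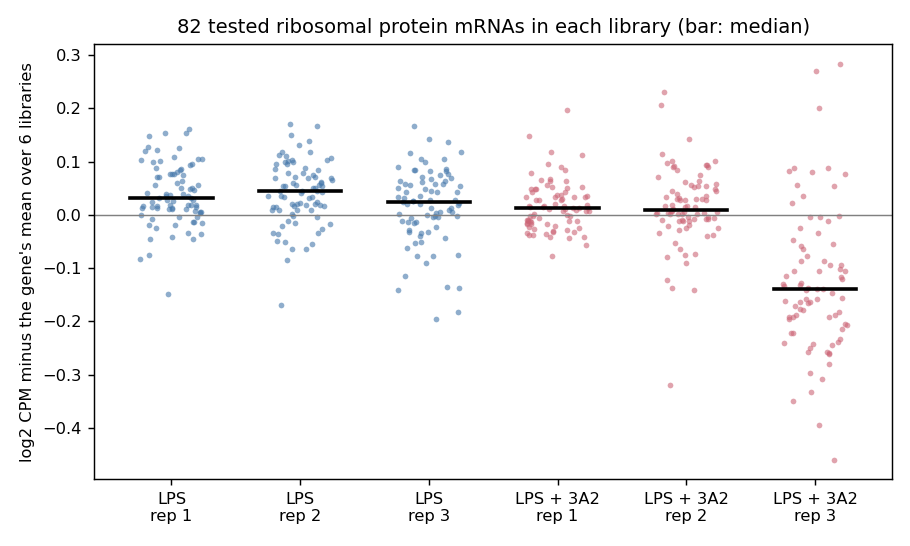
Log2 CPM of each of the 82 tested ribosomal protein genes minus its mean over the 6 libraries (y axis) in each library (x axis), with points for genes and a bar for the median. The median is -0.14 in the third 3A2 library and between 0.009 and 0.04 in the other 5.

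The same library differed in other measures. Mitochondrially encoded mRNAs made up 3.06% of its counts and 2.18% to 2.54% of the counts of the others, and mitochondrial rRNAs made up 6.89% against 2.64% to 5.13%. Its levels also went with the GC content of the annotated transcript. From 40% to 60% GC, the fitted log2 trend over genes went from 0.238 to -0.181 in this library. Opposite trends were present in the second 3A2 library (-0.115 to 0.0914) and the third LPS library (-0.108 to 0.0851). Both belong to the other 5, so the following values do not describe the third 3A2 library alone. Over 10868 tested genes with a GC value, Spearman's rho between GC content and the third 3A2 library's deviation from the other 5 was -0.59. Over the 82 members it was -0.58. These are descriptions across genes, which share their libraries and are not independent. In 4 groups of 20 or 21 members ordered by GC content, from low to high, the median deviation was -0.06, -0.13, -0.20 and -0.27. Within the group of lowest GC content (40.6% to 48.5%) 13 of 21 members were below the other libraries, and in that of highest GC content 21 of 21 were. At 45% GC the fitted trend over genes in this library was 0.11, relative to the mean of the 6 libraries. The like counts over all genes of the same GC content were not made.

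With the GC trend of every library removed, an alternative chosen after seeing the data, 65 of 82 members were below 0, against 49.4% of all genes, and the median was -0.05. No member passed the test in that fit either, and the smallest adjusted p of a member was 0.187 by edgeR. At an unadjusted p under 0.05, 5 members were higher, against 4.31% of all genes, and 16 lower, against 4.37% of all genes. The third 3A2 library was then the lowest for 56 members, against 21.6% of all genes, with a median deviation of -0.1. In all 3 fits (all libraries, without that library, and with the GC trend removed) 53 members were below 0 and 10 were above 0. The 3 fits share libraries and are not independent, and the like share over all genes was not counted.

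**Figure D4:**
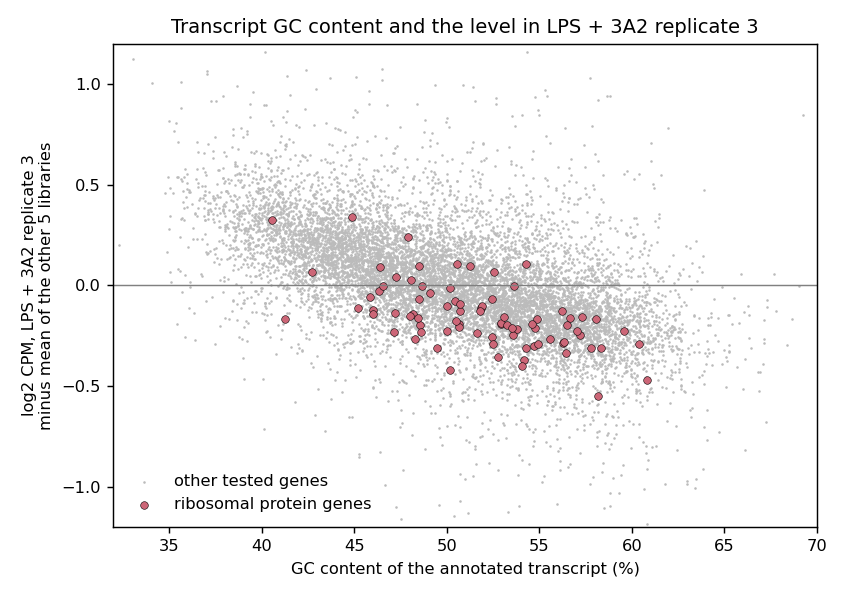
Deviation of the third 3A2 library from the mean of the other 5 in log2 CPM (y axis) against the GC content of the annotated transcript in percent (x axis), with ribosomal protein genes as large points and other tested genes as small ones, of which 30 lie outside the axes. Both sets slope downwards, with rho of -0.58 over 82 members and -0.59 over 10868 genes.

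Levels were compared between members per kilobase of annotated transcript (CPM per kb), with lengths from GENCODE M21 transcripts matched by symbol. With LPS they ran from 18.9 CPM per kb for Rpl6l to 1520 for Rpl4, with a median of 686, and the lower and upper quartiles were 498 and 896. The small subunit had a median of 786 CPM per kb and the large subunit 631. After Rpl4 came Rpl23a (1427 ± 54.8), Rpl41 (1422 ± 69.9) and Rplp1 (1296 ± 31.6), of which Rpl23a and Rpl41 did not differ beyond their SD (n = 3). At the low end, above Rpl6l, were Rpl22l1 at 41.1 CPM per kb, Rpl7l1 at 71.1 and Rpl26 at 121. Rps20, at 131, is uncertain because the coding transcript used was 3706 bases long.

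**Figure D5:**
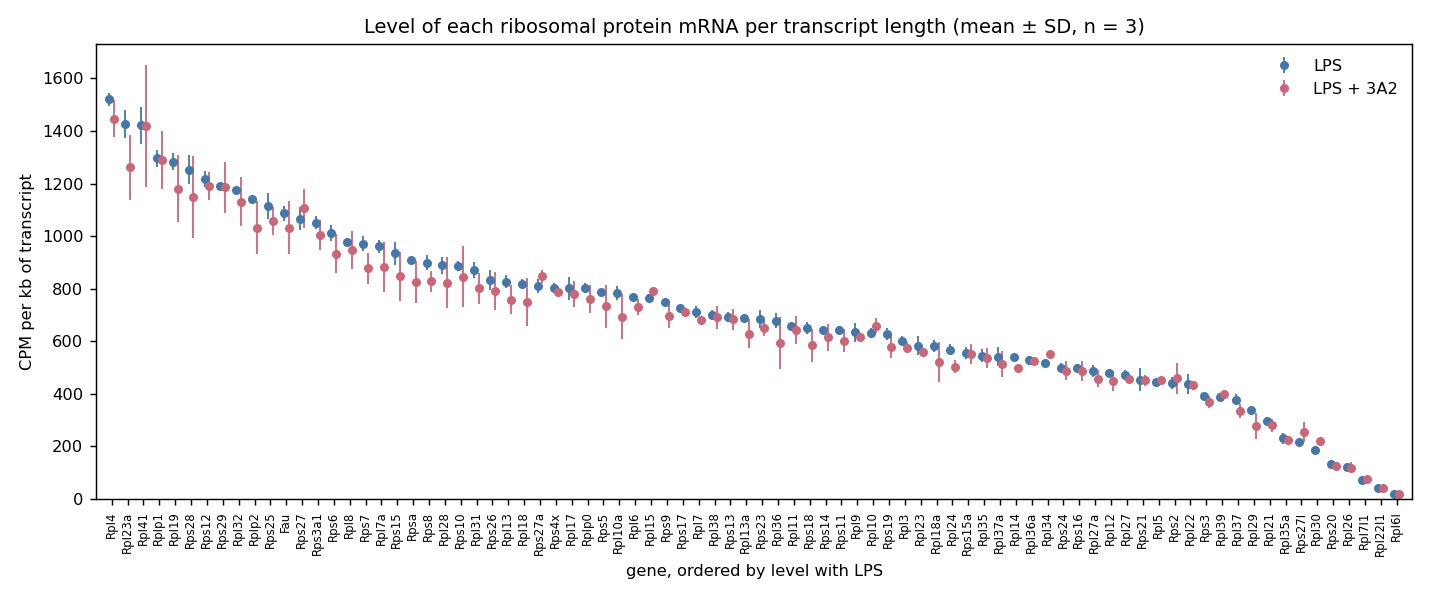
CPM per kilobase of annotated transcript (y axis, from 0) for each of the 82 tested ribosomal protein genes, ordered by level with LPS (x axis), with points for the mean and bars for the SD (n = 3) in each group. Levels run from 18.9 to 1520 with LPS, and the LPS and 3A2 points of a gene lie close together.

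Ribosomal protein genes have many processed pseudogenes, so reads may be shared between copies. Windows of 150 bases, the length of a read, were compared across all annotated transcripts. No window was shared in 11 members, fewer than 50% in 48 and 50% or more in 23. The median log2 fold change was -0.05, -0.07 and -0.07 in these classes. Rps27 shares 98.0% of its windows with Rps27rt, Rpl10 shares 90.9% with Rpl10-ps3, Rpl10a shares 86.0% with Rpl10a-ps1 and Rps6 shares 82.4% with Rps6-ps4, so their counts are uncertain. The same holds for Rpl6l, lowest per kb, with 47.6% of windows shared, 33.2% with Rpl6, and for Rpl23a, next after Rpl4, with 73.2% shared. In Rps27l there was no shared window, and in Rpl4 0.072% were shared. Pseudogene rows named for ribosomal proteins held 0.0346% to 0.0387% of the counts of a library.

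Rack1 and Rpl36al, which the symbol rule left out, had levels within the members' range. Rack1, a scaffold on the small subunit, measured 978 ± 10.3 and 962 ± 20.1 CPM with LPS and with 3A2, and Rpl36al, a copy of Rpl36a, 267 ± 17 and 248 ± 31 CPM (SD, n = 3). The adjusted p was 0.949 for Rack1 and 0.832 for Rpl36al by edgeR.

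Other genes that make or serve ribosomes were counted from lists, and no gene of them passed the test. Of 21 translation factors and other TOP mRNAs, 14 were below 0, with a median of -0.01. In that list Eef1a1, which brings tRNAs to the ribosome, measured 7780 ± 92.1 CPM under LPS alone and 7418 ± 277 CPM under 3A2, and Eef2, which moves the ribosome along, 2976 ± 93.2 and 2737 ± 199 CPM (SD, n = 3). Of 38 ribosome biogenesis genes, 21 were below 0, with a median of -0.02. Gar1, of the particles that make pseudouridine in rRNA, measured 23.5 ± 0.278 and 29.1 ± 2.1 CPM, and Nolc1, a nucleolar chaperone, 214 ± 3.58 and 187 ± 18.6 CPM (SD, n = 3). The groups of both did not overlap, and each had an adjusted p of 0.719 by edgeR.

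Of 10 genes of RNA polymerase I and its factors, which transcribe rRNA, 5 were below 0. Of 20 regulators of ribosomal protein synthesis, 14 were below 0, with a median of -0.07. Among these, Akt1s1, an mTORC1 inhibitor, measured 25.3 ± 1.27 CPM under LPS alone and 20.8 ± 0.945 CPM under 3A2 (SD, n = 3, adjusted p = 0.737 by edgeR). Of 20 cytosolic aminoacyl-tRNA synthetases, which charge tRNAs, 16 were below 0, with a median of -0.04, and of 10 ribosome quality control genes 5 were. Mitochondrial ribosomal proteins, which are also made in the cytosol but serve another ribosome, were below 0 in 38 of 78 genes, with a median of 0.02. The 13 mitochondrially encoded mRNAs were all above 0, with a median of 0.27, and all were above the mean of the other 5 libraries in the third 3A2 library.

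Among 3736 other genes with at least 50 CPM, the 3 whose log2 CPM followed the members' mean most closely over the 6 libraries were Snrpd2, a core protein of spliceosomal particles (Pearson's r = 0.999), Upf1, a helicase of nonsense-mediated decay (r = 0.99), and the transcript AY036118 (r = 0.99). Snrpd2 measured 96.8, 97.7 and 91.7 CPM with LPS and 94, 92 and 67.6 CPM with 3A2. In AY036118 the third 3A2 library was at 8.35 CPM and the others were between 53 and 76.4 CPM. These genes were picked as the extremes of many over 6 libraries, and the third 3A2 library was the lowest in each.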

How the data were processed

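RNA was depleted of rRNA and sequenced as strand-specific paired-end libraries on an Illumina NovaSeq X, per the labels' protocols. The values analysed are the deposited raw counts, which give for each library the reads of each gene symbol without pooling. The submitters' processing notes list HISAT2, edgeR and the human build GRCh38, although the symbols are those of mouse genes. How reads were counted, and whether by strand, is not given in the sources used here, so overlapping antisense genes are uncertain. Cells in 3 unnamed columns were not used.

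The labels gave each library's group and replicate number. Counts were filtered with filterByExpr (11498 of 18179 genes with a count), TMM-scaled, and compared in edgeR 4.0.16 under R 4.3.3 by the robust two-sided quasi-likelihood F test without covariates, at a Benjamini-Hochberg adjusted p of 0.05 over all genes tested. CPM are counts over TMM-scaled library totals. The biological coefficient of variation was 0.0768. Transcript length and GC content came from GENCODE M21 (GRCm38), with the shortest principal coding transcript per gene, and promoters from RefSeq. The test was tried on simulated data first. Alternatives were other scalings and filters, DESeq2 1.42.0, limma-voom (limma 3.58.1), the replicate number as a block, leaving out each library, and removal of a GC trend per library.

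Members named were the 10 with the smallest p, the 3 highest and 3 lowest fold changes, the 3 most abundant of each subunit, and set genes by role. Other lists gave the genes with the smallest p and the most abundant. Rpl15 and Rpl26 were named after their values were seen, as were Rpl41 and Rpl6l. Of the genes the rules name, some are not reported here. The members, lists and rules were chosen with earlier results of these data known.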

Additional observations from a re-analysis of the deposited data

How the results depend on the processing

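Of the 34 ribosomal protein genes followed singly, 544 values under alternatives were computed, and 13 of these turned direction. Among these was Rpl22l1, at -0.0793 without 3A2 replicate 3, a size like that of the members' median of -0.07 with all libraries. With all libraries kept, 0 members were called under every scaling, filter, threshold and tool tried. With a library left out 0 to 1 were (Rps27l, log2 fold change 0.35, without 3A2 replicate 2, its lowest 3A2 library). Over all genes the count was 0 with DESeq2, limma-voom and the other scalings, 16 with no filter on low counts (13 higher, 3 lower), 13 with the GC trend removed (7 higher, 6 lower), an alternative chosen after seeing the data, and 0 to 25 with a library left out. It was 25 without 3A2 replicate 2, 1 without LPS replicate 1 and 1 without 3A2 replicate 3. With the replicate number as a block 1 gene and 0 members were called. Same-numbered libraries did not deviate together (r = -0.007, 0.032 and -0.156), so the numbers are not read as pairs. Members whose groups did not overlap numbered 26 (2 higher, 24 lower) on library totals alone, against 16, where the groups of 4.51% of all genes did not overlap with 3A2 higher and those of 8.51% with 3A2 lower. The median log2 fold change of members stayed below 0, from -0.1 to -0.03 with a library left out, and the difference in their share of counts was -0.277 percentage points, from -0.366 to -0.124. With the GC trend removed, Rplp1 was at 0.0537, Rpl5 at -0.0463 and Rpl22l1 at -0.0475. With a library left out, the log2 fold change ranged from -0.0793 to 0.208 for Rpl22l1, from -0.0861 to 0.0226 for Rpl22, from -0.0685 to 0.0539 for Rplp1, from -0.000407 to 0.0363 for Rpl5, from -0.071 to 0.0344 for Rpl11 and from -0.13 to 0.00495 for Fau. The causes of these changes were not tested. The 3 libraries per group and a median standard error of 0.119 over all genes (0.065 for members) limit what could be called.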
